A study of Homo sapiens with 4 samples.

Results

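The genes described here encode the mitochondrial ribosomal proteins (MRP genes). They were chosen as the protein-coding genes of the table whose symbol begins with MRPL or MRPS followed by a number, which gave 78 of the 18885 genes listed. RNA was sequenced from the human AML cell line MV4-11, in 2 control libraries (the sh-NC group) and 2 libraries after ANP32B knockdown (the sh-ANP32B group), where a short hairpin RNA targets the histone chaperone ANP32B. The study describes stable lines made by lentiviral transduction and selected with puromycin, and the hairpin behind the sequenced knockdown cells is not named with these libraries. The shRNA of the controls is labelled as none, and the name sh-NC is the paper's. If the control cells carried none, effects of transduction and selection cannot be told apart from those of the knockdown. The 2 libraries of a group are not stated to come from separate cultures, so the p-values below measure the spread between libraries, which may be technical.

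Mitochondria carry their own ribosome, which translates the few mRNAs of the mitochondrial genome, all for subunits of the respiratory chain and the ATP synthase. Its RNAs come from mitochondrial DNA, but each of its proteins is encoded in the nucleus, made in the cytosol and imported. Many of these proteins descend from bacterial ribosomal proteins, while others were added in the mitochondrial lineage and have no bacterial counterpart. AML cells are known for a high reliance on mitochondrial translation and respiration.

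The values are TPM (a transcript abundance), that is, read density per base of gene length scaled to a common total, so that levels can be compared between genes. Each value is a share of its library's total, so a difference between libraries also depends on the levels of all other genes. The listed genes summed to between 997271 and 998546 TPM per library. Read numbers are not kept in TPM, so neither the depth nor a counting error is known. ANP32B itself had 358 and 364 TPM in sh-NC and 54.1 and 49.3 TPM in sh-ANP32B. It was the targeted gene and fell by 2.78 on the log2 scale (SE 0.056, limma adjusted p = 2.89e-05). All 7 myeloid markers examined for MV4-11 (CD33, FLT3, SPI1, HOXA9, MEIS1, CSF1R and LYZ) had a mean of 1 TPM or more over the 4 libraries. Their summed level was 1009 to 1015 TPM in sh-NC and 5902 to 5955 TPM in sh-ANP32B, a difference carried almost wholly by LYZ, with 471 and 463 TPM in sh-NC and 5308 and 5260 TPM in sh-ANP32B. Among the others CD33 and SPI1 rose, by 0.40 and 0.51 on the log2 scale, MEIS1 fell by 0.61, and FLT3, HOXA9 and CSF1R did not pass the test. Of 10 markers of other cell types 7 were not listed, the T cell gene CD3E, the erythroid gene HBB and the epithelial gene EPCAM among them. The part of these marker differences in the results below was not tested. In bulk RNA, fewer cells with a given mRNA and less of that mRNA per cell cannot be told apart.

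Most MRP genes were downregulated after ANP32B knockdown. The summed level of the 78 genes was 5881 and 5840 TPM in sh-NC and 4619 and 4555 TPM in sh-ANP32B, 78.3% of the control mean. Their share of each library's TPM was 0.589% and 0.585% in sh-NC, against 0.463% and 0.457% in sh-ANP32B. Each gene was tested with limma on log2(TPM + 1), together with every gene of at least 1 TPM in at least 2 libraries (16937 genes), and called at a Benjamini-Hochberg adjusted p below 0.05. All 78 MRP genes passed this filter. Of these, 50 fell (64.1%), while 19.7% of all genes tested were called lower. Only MRPL33 and MRPS11 rose, while 26% of all genes tested were called higher. The other 26 did not pass the test. The fold change was negative for 70 of the 78. The median log2 fold change was -0.34 with a lower quartile of -0.47, beside a median of 0.08 over all genes tested. A fold change on the log2(TPM + 1) scale slightly understates the change of low genes.

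**Figure D1:**
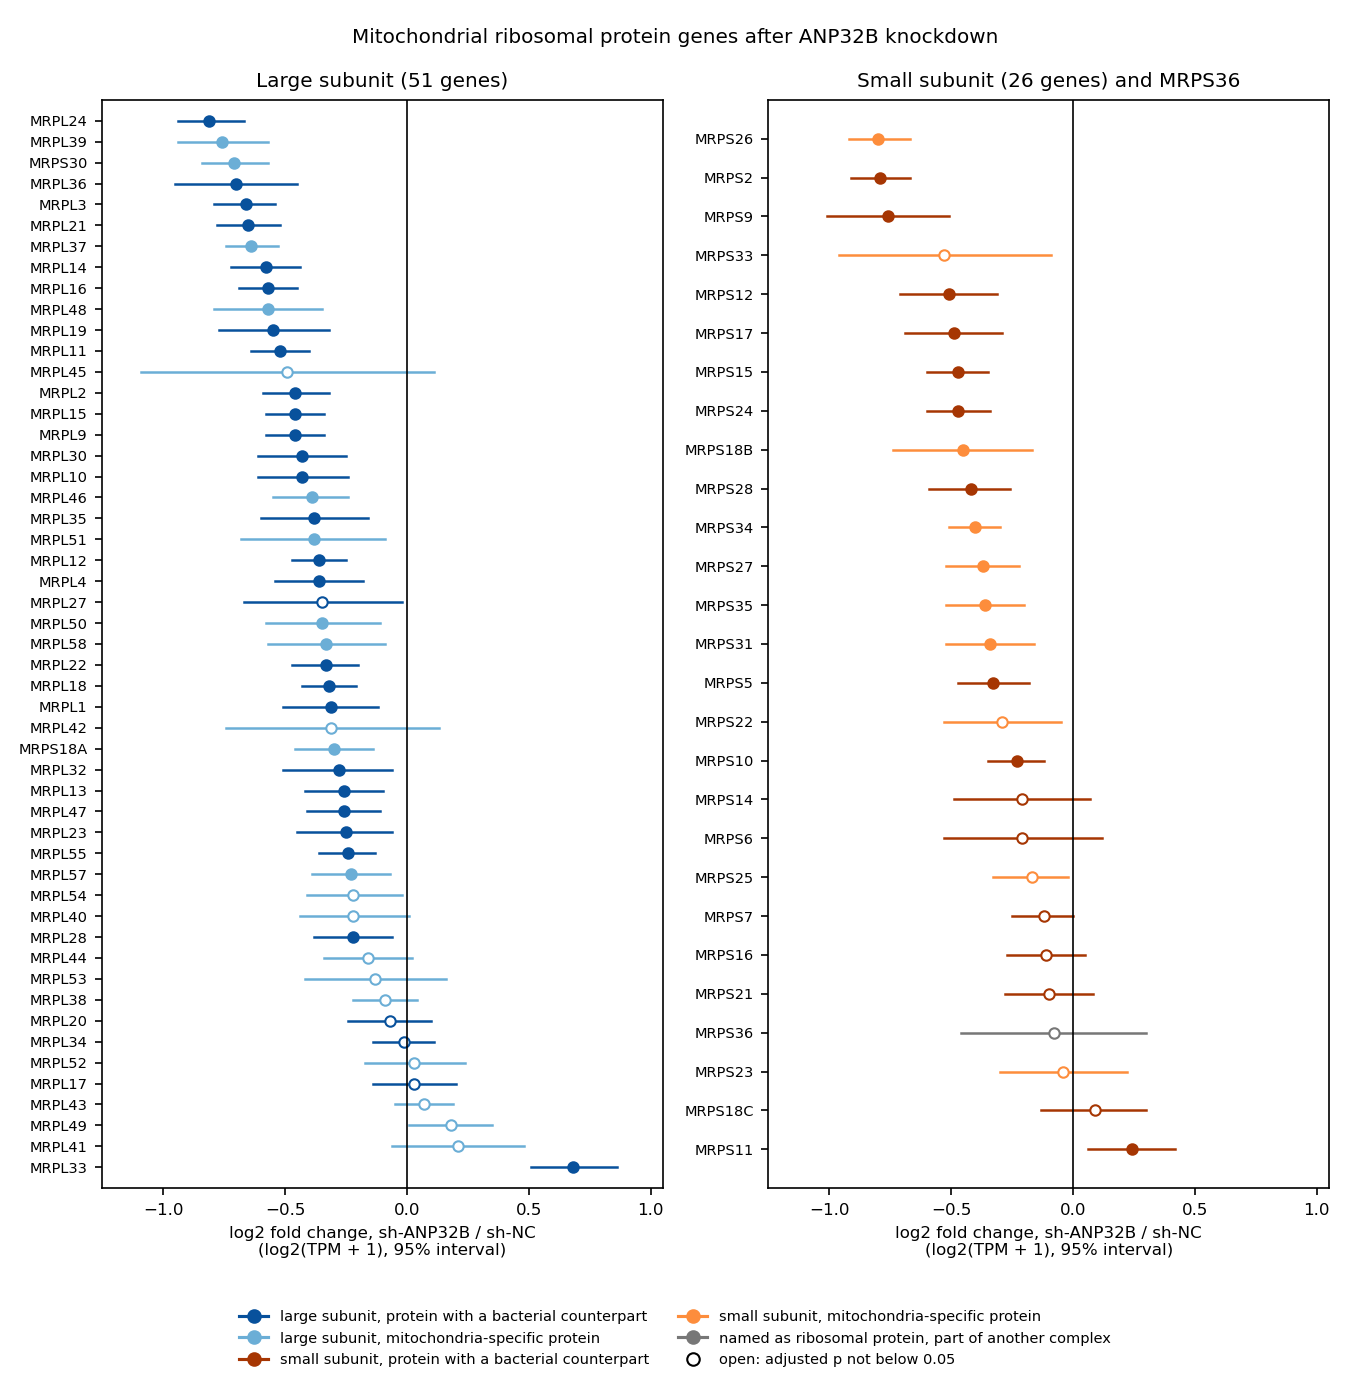
Log2 fold change of sh-ANP32B over sh-NC on the log2(TPM + 1) scale (x axis) for each MRP gene (y axis), with the 95% interval from limma as a line, split by subunit and coloured by protein class; filled points have an adjusted p below 0.05. Of the 78 points 70 lie left of 0, from MRPL24 at -0.81, and MRPL33 at 0.68 lies farthest to the right of the 8 others.

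The MRP genes spread less in fold change than all genes tested. The SD of the log2 fold change was 0.264 among the 78 genes, against 0.591 among all genes tested, and 47 members lay within 0.2 of their median. The 2 SDs are not matched for level. The lowest MRP gene had a mean of 11 TPM, while the median of the mean levels of all genes listed was 10.7 TPM. How far noise at low levels widens the spread of all genes was not tested. The 95% interval of 44 members contained that median. Both sh-ANP32B libraries were below both sh-NC libraries for 62 members, where 32.1% of all genes tested did so, and above them for 5 members, where 42.5% of all genes did so. Under the limits of the study's methods, which ask for an unadjusted p below 0.05 together with a fold change beyond 0.5 (log2), 17 MRP genes were lower and 1 was higher, beside 10.8% and 20.2% of all genes tested. With an adjusted p and the same fold limit the counts were 16 and 1, beside 10.1% and 17.9%. Most of the 50 genes thus fell by less than that fold limit. The libraries of a group gave close values for these genes, with a median absolute log2 difference of 0.0849 for sh-NC and 0.0703 for sh-ANP32B.

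The position of the MRP genes relative to all genes was also examined under 2 other scalings of the TPM. With median-of-ratios scaling the median over all genes tested was -0.01 and with quantile normalization it was -0.04, against 0.08 for the TPM as deposited. All genes tested then split into 4201 lower and 3575 higher, and into 3936 lower and 3534 higher, respectively, against 3342 lower and 4405 higher as deposited. The MRP genes split into 60 lower and 1 higher with median-of-ratios scaling and into 46 lower and 1 higher with quantile normalization. Their median minus the median of all genes tested was -0.41 as deposited, -0.42 with median-of-ratios scaling and -0.30 with quantile normalization.

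The genes of the large subunit, which forms the peptide bond, and of the small subunit, which reads the mRNA, were both downregulated for the most part. Of the 51 large subunit genes 35 fell and 1 rose, with a median log2 fold change of -0.33. Of the 26 small subunit genes 15 fell and 1 rose, with a median of -0.35. MRPS18A and MRPS30 carry a small subunit name but encode proteins of the large subunit, and are counted there. The mean level per large subunit gene was 78.9 and 79.1 TPM in sh-NC and 62.9 and 61.7 TPM in sh-ANP32B. Per small subunit gene it was 70.9 and 69 TPM in sh-NC and 53.7 and 53.7 TPM in sh-ANP32B. The ratio of these means was 1.11 and 1.15 for sh-NC, and 1.17 and 1.15 after knockdown, so the groups overlapped at 1.15.

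Among large subunit genes whose protein has a bacterial counterpart, 25 of 30 fell and 1 rose, with a median log2 fold change of -0.36. Among those of mitochondria-specific proteins 10 of 21 fell and none rose, with a median of -0.30. This last count was 6 without sh-NC replicate 1 and 6 without a trend in limma's variance model. In the small subunit 9 of 16 genes with a bacterial counterpart fell and 1 rose, with a median of -0.28, and 6 of 10 mitochondria-specific genes fell, with a median of -0.36. The difference between the classes was not tested.

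The largest decreases by log2 fold change were found for MRPL24, MRPS26, MRPS2, MRPS9 and MRPL39. MRPL24, whose protein lies near the exit of the peptide tunnel, had 97.5 and 103 TPM in sh-NC and 56 and 57.9 TPM in sh-ANP32B, a log2 fold change of -0.81 (SE 0.053, limma adjusted p = 2.84e-04). MRPS26, a mitochondria-specific small subunit protein, had 69 and 70.2 TPM in sh-NC and 39.8 and 39.5 TPM in sh-ANP32B, a log2 fold change of -0.80 (SE 0.051, limma adjusted p = 2.63e-04). MRPS2, the counterpart of bacterial S2, had 137 and 134 TPM in sh-NC and 79.8 and 75.9 TPM in sh-ANP32B, a log2 fold change of -0.79 (SE 0.048, limma adjusted p = 2.29e-04). For these genes the knockdown libraries held 56.7% to 57.6% of the control mean, and the groups were far apart relative to the spread between replicates. MRPS9, the counterpart of bacterial S9, had 58.5 and 56.7 TPM in sh-NC and 30.5 and 37 TPM in sh-ANP32B (log2 fold change -0.76, SE 0.099, limma adjusted p = 0.00234). MRPL39, a mitochondria-specific protein near the tunnel exit, had 69.8 and 67 TPM in sh-NC and 37.6 and 42.7 TPM in sh-ANP32B (log2 fold change -0.76, SE 0.076, limma adjusted p = 9.69e-04). The sh-ANP32B libraries of these genes lay below both sh-NC libraries, and were farther from each other than in the former genes.

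Large subunit genes with special roles were among those that fell. MRPS30 had 90.6 and 95.9 TPM in sh-NC and 56.2 and 57.4 TPM in sh-ANP32B (log2 fold change -0.71, SE 0.052, limma adjusted p = 3.79e-04). The stalk, a flexible arm that recruits translation factors to the ribosome, is built on MRPL10 and MRPL11 and carries copies of MRPL12, and all 3 genes fell. MRPL11 had 79.5 and 77.8 TPM in sh-NC and 55.3 and 53.9 TPM in sh-ANP32B, a log2 fold change of -0.52. MRPL10 had 53 and 49.5 TPM in sh-NC and 39.8 and 36 TPM in sh-ANP32B, a log2 fold change of -0.43. MRPL12, which is also known to bind the mitochondrial RNA polymerase, had 215 and 222 TPM in sh-NC and 174 and 166 TPM in sh-ANP32B, a log2 fold change of -0.36. None of these 3 had overlapping groups. MRPL58, a peptidyl-tRNA hydrolase that became part of the large subunit, had 73.8 and 68.3 TPM in sh-NC and 51.4 and 61.4 TPM in sh-ANP32B, a log2 fold change of -0.33 (SE 0.095, limma adjusted p = 0.0361). Its call was lost in 4 of the alternatives with all 4 libraries, with an adjusted p of up to 0.103, and in 3 of the 4 fits without 1 library.

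At the exit of the peptide tunnel 5 of 8 genes fell, the median being -0.30 on the log2 scale, and the count was 3 without sh-NC replicate 2, without sh-ANP32B replicate 2 and without a variance trend. MRPL45, which tethers the ribosome to the inner membrane at this exit, was the lowest of all MRP genes in mean level. It had 14.2 and 11.5 TPM in sh-NC and 11.4 and 6.77 TPM in sh-ANP32B, a log2 fold change of -0.49 (SE 0.240, limma adjusted p = 0.149). Its knockdown libraries were farther apart than the group means, and the fold change was -0.83 without sh-ANP32B replicate 1, where it passed the test, and -0.15 without sh-ANP32B replicate 2. In the central protuberance, where the human mitoribosome holds a tRNA in place of the 5S rRNA, 3 of 5 genes fell, with a median of -0.32, and all 5 did with median-of-ratios scaling.

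In the small subunit, 3 genes of proteins at the mRNA path and the decoding site were examined, MRPS5, MRPS12 and MRPS24, and all 3 fell. These 3 are a selection and do not stand for every protein of that path. MRPS12, the counterpart of the bacterial S12 protein of the decoding site, had 84.5 and 74 TPM in sh-NC and 53.1 and 57.2 TPM in sh-ANP32B, a log2 fold change of -0.51 (SE 0.080, limma adjusted p = 0.00456). MRPS23, a mitochondria-specific protein, had 11.7 and 10.9 TPM in sh-NC and 11.3 and 10.6 TPM in sh-ANP32B, so its groups overlapped (log2 fold change -0.04, 95% interval -0.30 to 0.22).

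Animals have 3 paralogues of bacterial S18, which sit at different places of the mitoribosome. In the classes above only MRPS18C was counted as having a bacterial counterpart. MRPS18A and MRPS18B were counted as mitochondria-specific, although they are related to S18. MRPS18A, in the large subunit, had 68.4 and 63.3 TPM in sh-NC and 54.8 and 51.8 TPM in sh-ANP32B, a log2 fold change of -0.30 (SE 0.064, limma adjusted p = 0.0134). With all 4 libraries its call was lost without a trend in limma's variance model (adjusted p = 0.0572). MRPS18B, a small subunit protein at a site of its own, had 17.8 and 18.9 TPM in sh-NC and 12 and 14.4 TPM in sh-ANP32B, a log2 fold change of -0.45 (SE 0.114, limma adjusted p = 0.0238). MRPS18C, at the place of bacterial S18, had 18.5 and 17.1 TPM in sh-NC and 18.5 and 19.4 TPM in sh-ANP32B, a log2 fold change of 0.09 (95% interval -0.13 to 0.30, limma adjusted p = 0.456). The groups were apart for MRPS18A and MRPS18B, and they met at 18.5 TPM for MRPS18C, whose fold change was -0.01 with median-of-ratios scaling. The call was lost without sh-NC replicate 1 for MRPS18A (adjusted p = 0.0621) and for MRPS18B (adjusted p = 0.0614), and also without sh-ANP32B replicate 2 for MRPS18A (adjusted p = 0.0532) and without sh-NC replicate 2 or sh-ANP32B replicate 1 for MRPS18B (adjusted p = 0.0917 and 0.0768).

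**Figure D2:**
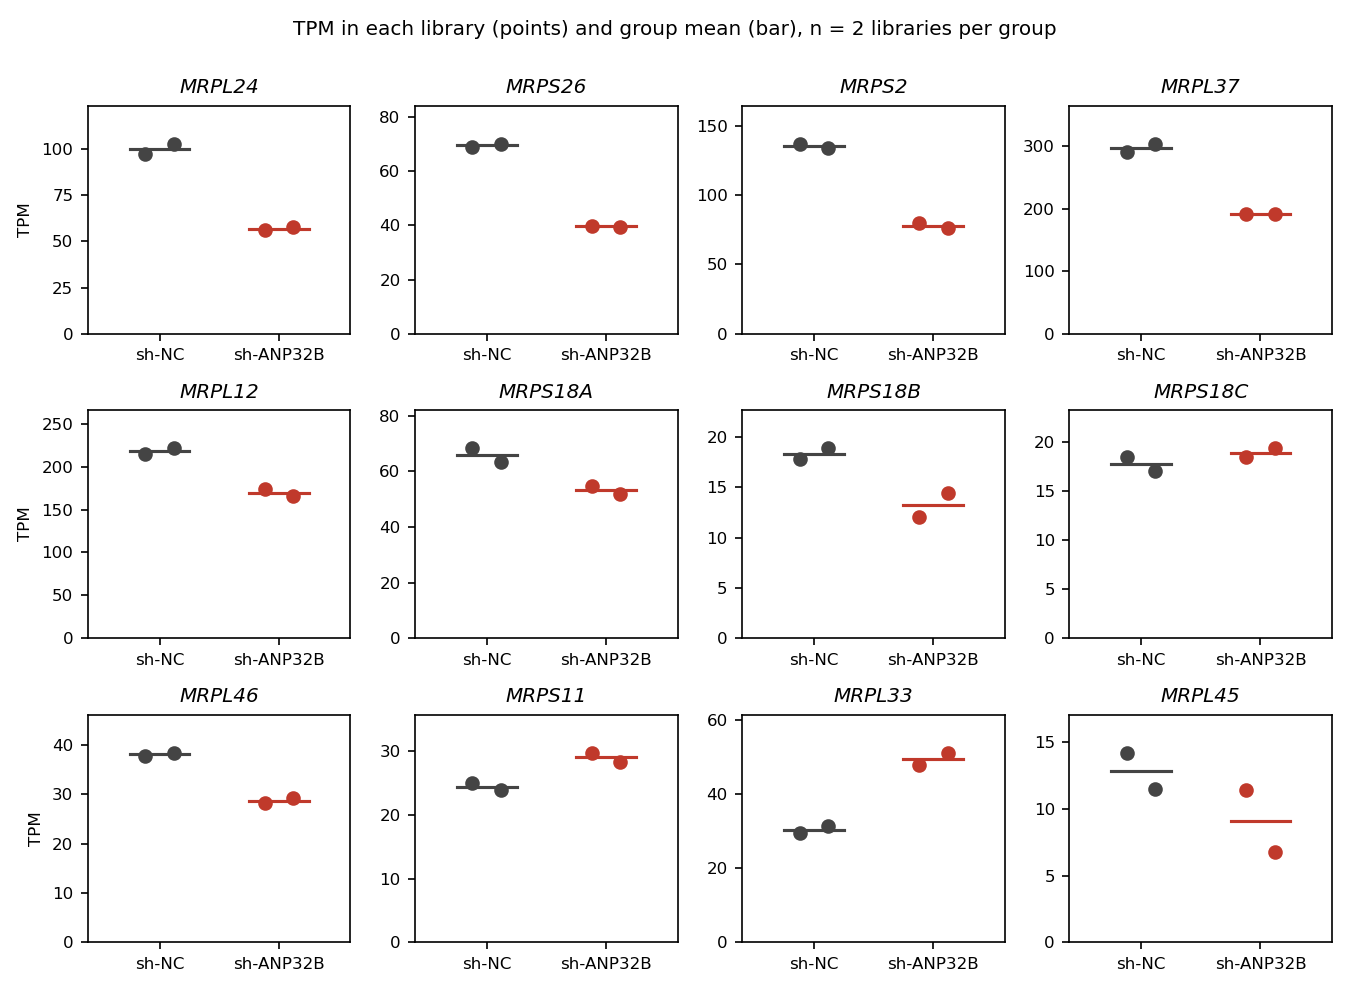
TPM (y axis, from 0) in each of the 2 sh-NC and 2 sh-ANP32B libraries (points) with the group mean (bar) for 12 MRP genes. MRPL24, MRPS26, MRPS2 and MRPL37 drop with close replicates, MRPL33 goes from 29.5 and 31.5 TPM up to 47.9 and 51.3 TPM, and the knockdown libraries of MRPL45 spread from 6.77 to 11.4 TPM.

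MRPL33 was the exception among the MRP genes. It encodes the counterpart of bacterial L33, a small protein of the large subunit, and had 29.5 and 31.5 TPM in sh-NC and 47.9 and 51.3 TPM in sh-ANP32B. The log2 fold change was 0.68 (SE 0.069, limma adjusted p = 9.91e-04), a level of 163% of the control mean, and the call held in all 9 settings that kept the 4 libraries. The gene (GRCh38 chr2:27771717-27988087, plus strand) shares 324 of its 1532 exonic bases with BABAM2 on the same strand. BABAM2 had 43.8 and 39.3 TPM in sh-NC and 49.2 and 47.2 TPM in sh-ANP32B, a log2 fold change of 0.21 (limma adjusted p = 0.0588), and how the authors' counting split reads between the genes is not given in the sources used here.

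MRPS11, the counterpart of bacterial S11, had 25 and 23.9 TPM in sh-NC and 29.8 and 28.3 TPM in sh-ANP32B. Its log2 fold change of 0.24 (SE 0.071, limma adjusted p = 0.0399) passed the test, but the call was lost when any 1 of the 4 libraries was left out and in 4 other alternatives, with adjusted p from 0.0577 to 0.163 in these. MRPL41 and MRPL49, both mitochondria-specific large subunit proteins, followed in the order of fold changes without passing the test. MRPL41 had 54.8 and 68.4 TPM in sh-NC and 73.2 and 69.2 TPM in sh-ANP32B, so that both knockdown libraries were above both controls, with a log2 fold change of 0.21 (SE 0.108, limma adjusted p = 0.161). MRPL49 had 52.7 and 50.1 TPM in sh-NC and 61.3 and 55.7 TPM in sh-ANP32B, with a log2 fold change of 0.18 (SE 0.067, limma adjusted p = 0.0753). MRPL41 passed without sh-NC replicate 2, at a log2 fold change of 0.37 (adjusted p = 0.0161). MRPS36, which bears an MRP name but encodes a subunit of the 2-oxoglutarate dehydrogenase complex, had 12.8 and 14.5 TPM in sh-NC and 14.7 and 11.1 TPM in sh-ANP32B, so its groups overlapped (log2 fold change -0.08, 95% interval -0.46 to 0.30).

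The MRP genes differed 22.3-fold in mean level, from 11 TPM for MRPL45 to 244 TPM for MRPL37. MRPL37, a mitochondria-specific large subunit protein, had 291 and 304 TPM in sh-NC and 191 and 191 TPM in sh-ANP32B, a log2 fold change of -0.64. MRPL12 came next at a mean of 194 TPM and MRPL9, the counterpart of bacterial L9, at 172 TPM. MRPL9 had 206 and 193 TPM in sh-NC and 147 and 142 TPM in sh-ANP32B, a log2 fold change of -0.46. At the other end of the order MRPS23 (11.1 TPM) and MRPL45 (11 TPM) did not differ beyond their spread, and MRPL50, a mitochondria-specific large subunit protein, followed closely. It had 14.9 and 14.7 TPM in sh-NC and 11.2 and 11.7 TPM in sh-ANP32B, a log2 fold change of -0.35 (SE 0.094, limma adjusted p = 0.0292), and its call was lost whenever any of the 4 libraries was left out.

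The decrease was seen at all levels. When the genes were split by mean TPM into a low, a middle and a high set of 26 each, 12, 18 and 20 of them fell, with median log2 fold changes of -0.32, -0.33 and -0.36, while the median SE was 0.087, 0.073 and 0.050. Both genes that rose belonged to the low set. Of all genes tested in the same ranges of level, 24.5%, 34.1% and 40.7% were called lower.

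**Figure D3:**
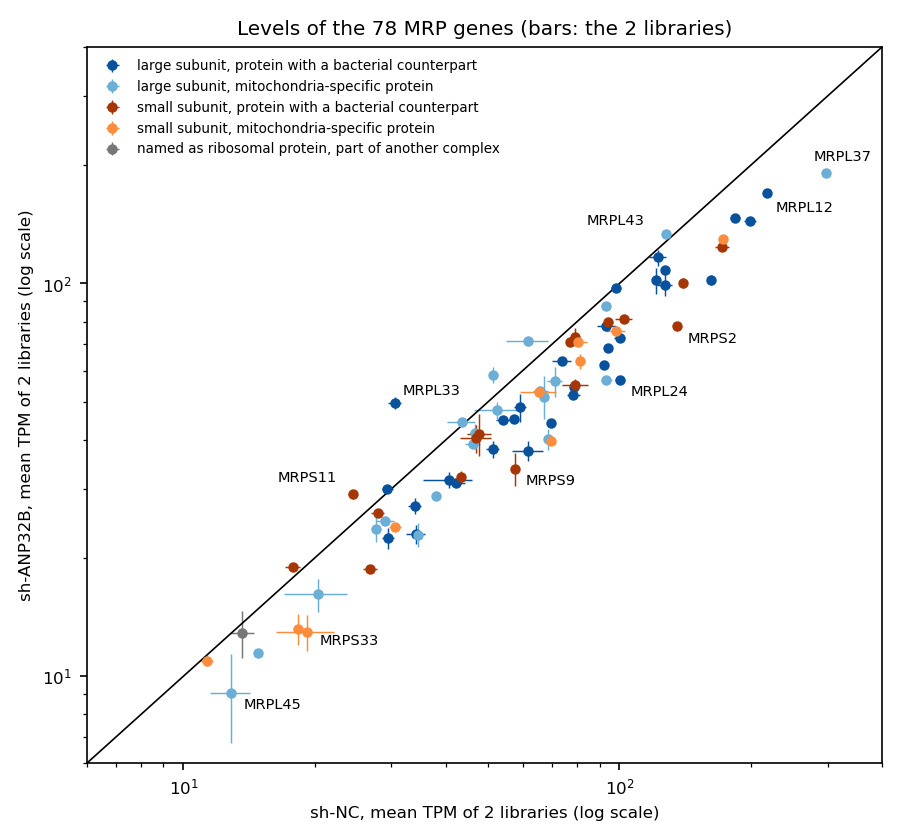
Mean TPM in sh-ANP32B (y axis, log scale) against mean TPM in sh-NC (x axis, log scale) for the 78 MRP genes, coloured by protein class, with bars spanning the 2 libraries of each group and the line of equal levels. Of the 78 points 70 lie below the line, from MRPL45 at a mean of 11 TPM over the 4 libraries to MRPL37 at 244 TPM, and 8 lie above it, MRPL33 and MRPS11 among them.

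The positions of the MRP genes were taken from GENCODE 44 on GRCh38, where the 78 genes lie on 21 chromosomes. Exonic bases are shared with another gene by 41 of them, by 18 on the same strand and by 30 on the opposite strand, and 36 have an annotated pseudogene of their name. The values of such genes are uncertain where counting could not separate the copies or the strands. Of the 19 genes with neither, 13 fell and none rose, with a median log2 fold change of -0.35. Among the pseudogenes, MRPS18AP1, a processed copy of MRPS18A, had 4.16 and 2.85 TPM in sh-NC and 11.2 and 12.3 TPM in sh-ANP32B (log2 fold change 1.51, limma adjusted p = 0.0018), opposite to MRPS18A, and MRPS31P4 fell by 0.45 on the log2 scale (limma adjusted p = 0.0118).

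Some MRP genes start back to back with another gene. A start on the opposite strand within 1000 bases was found for 17 MRP genes (21.8%), and for 11.9% of the protein-coding genes listed. Of 10 such MRP genes that fell and had a tested partner, the partner fell for 5 and rose for 3. Of all genes tested 19.7% were called lower and 26% higher, so the number of rising partners is near that share. MRPS11, itself an MRP gene with an unsteady call, is 1 of the 3. MRPL46, a protein of the central protuberance, and MRPS11 form such a pair, with starts 63 bases apart on chromosome 15. MRPL46 had 37.7 and 38.4 TPM in sh-NC and 28.1 and 29.3 TPM in sh-ANP32B, a log2 fold change of -0.39 (SE 0.063, limma adjusted p = 0.005), whereas MRPS11 had a log2 fold change of 0.24. MRPL49 starts 6 bases from FAU, a cytosolic ribosomal protein gene that fell by 0.36 on the log2 scale, and MRPL36 starts 41 bases from NDUFS6, a complex I gene that fell by 0.50 together with MRPL36, which fell by 0.70. The stretch between MRPL46 and MRPS11 is printed here because these genes moved in opposite directions from 1 shared start region, read 5′ to 3′ on the strand of MRPL46, together with the bases before the start of MRPL33, the gene with the clearest increase.
MRPL46 to MRPS11, GRCh38 chr15:88467391-88467452, minus strand: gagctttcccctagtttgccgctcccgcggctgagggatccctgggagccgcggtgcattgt
MRPL33, GRCh38 chr2:27771597-27771716, plus strand: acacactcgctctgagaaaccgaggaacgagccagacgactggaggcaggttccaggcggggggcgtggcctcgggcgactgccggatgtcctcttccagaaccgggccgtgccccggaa

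The promoters of the MRP genes, as 300 bases from 250 before to 50 after the start in RefSeq (GRCh38.p14), were searched for 6 motifs on both strands. A promoter was matched for 69 of the 78 genes. The motif that stood out in share was that of YY1 (AAGATGGCG), a zinc finger factor known to bind at the starts of many housekeeping genes. It was found in 13 MRP promoters (18.8%), in 4.28% of the promoters of protein-coding genes tested and in 1.85% of all promoters of the table. The ETS motif (CCGGAAGT) was found in 15.9% of MRP promoters and 9.43% of those of protein-coding genes tested. The E-box (CACGTG), the site of MYC and its partners, was found in 8.7% and 10.7%, the NRF1 motif, of a factor known to act on nuclear genes of mitochondria, in 11.6% and 12.5%, CCAAT in 29% and 36.8%, and the GC box (GGGCGG) in 60.9% and 70.3%, respectively. None of the 6 was found in the windows searched for MRPL33 and MRPS11. The same held for MRPL48, MRPL19, MRPL11, MRPL9 and MRPL12, which fell, and for MRPL54, MRPS25 and MRPS23, which did not pass the test. A window without these motifs was thus not particular to the genes that rose. The YY1 match of MRPL46 printed below lies before the GENCODE start of MRPS11 (chr15:88467453, plus strand), but outside the RefSeq window searched for MRPS11. The sequence near that GENCODE start is thus not free of the YY1 motif.

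Of the 14 YY1 matches 12 were on the strand of the gene and 9 covered its annotated start codon, the ATG inside the motif. Of the 13 genes with a match 10 fell, beside 42 of all 69 MRP genes with a promoter and 19.7% of all genes tested. The median log2 fold change over the 13 was -0.33, and the 56 genes with a promoter but no match also had a median of -0.33. The matches over a start codon are printed below with the flanking bases, with the motif in capitals, because they show that one arrangement recurs in genes of both subunits. A match is a sequence feature and no evidence of binding.
MRPS30, chr5:44808950-44808978, plus strand: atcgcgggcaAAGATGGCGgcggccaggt
MRPS24, chr7:43869480-43869508, minus strand: cgcttggcccAAGATGGCGgcctccgtgt
MRPS18B, chr6:30617853-30617881, plus strand: ggcgtacgtcAAGATGGCGgcgtctgtat
MRPL46, chr15:88467362-88467390, minus strand: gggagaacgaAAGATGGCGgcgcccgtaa
MRPL50, chr9:101398577-101398605, minus strand: gatctcatcgAAGATGGCGgcgcgatctg
MRPL22, chr5:154941098-154941122, plus strand: gggagggcgaAAGATGGCGgcggca
MRPS18A, chr6:43687764-43687792, minus strand: taggtttttgAAGATGGCGgccctcaagg
MRPS10, chr6:42217834-42217862, minus strand: cgggaccggcAAGATGGCGgcgcggacag
MRPL38, chr17:75904860-75904888, minus strand: ggccggagggAAGATGGCGgcgccctggt

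These genes ran from MRPS30, with a log2 fold change of -0.71, to MRPL38, a central protuberance protein with 95.3 and 90.7 TPM in sh-NC and 89.6 and 85.5 TPM in sh-ANP32B, whose log2 fold change of -0.09 did not pass the test (adjusted p = 0.224). The other 8 fell.

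Of the 5 mitoribosomal proteins with other names 3 fell, the median being -0.18 on the log2 scale, and 1 did without sh-ANP32B replicate 2 or without a variance trend. GADD45GIP1, a large subunit protein at the tunnel exit, had 110.2 and 109 TPM in sh-NC and 69.9 and 76.3 TPM in sh-ANP32B (log2 fold change -0.58, limma adjusted p = 8.96e-04). AURKAIP1, a small subunit protein, fell by 0.21 on the log2 scale (limma adjusted p = 0.0119), a call lost without sh-ANP32B replicate 2 (adjusted p = 0.0508). PTCD3, a pentatricopeptide repeat protein of the small subunit, fell by 0.18 (limma adjusted p = 0.0285), a call lost whenever any of the 4 libraries was left out. DAP3, the GTP-binding protein of the small subunit, had 188 and 211 TPM in sh-NC and 174 and 199 TPM in sh-ANP32B (log2 fold change -0.10, 95% interval -0.31 to 0.12). CHCHD1, another small subunit protein, had 57.5 and 62 TPM in sh-NC and 58.3 and 55.8 TPM in sh-ANP32B (log2 fold change -0.06, 95% interval -0.22 to 0.09). The groups of DAP3 and CHCHD1 overlapped.

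Of 15 mitochondrial translation factors 6 fell (40%) and none rose, with a median log2 fold change of -0.17. Beside this, 19.7% of all genes tested were called lower and 26% higher. In the ranges of level used above for the MRP genes, between 24.5% and 40.7% of all genes were called lower. TUFM, the elongation factor that brings tRNAs to the mitoribosome, had 329.7 and 343 TPM in sh-NC and 201 and 198 TPM in sh-ANP32B, a log2 fold change of -0.75 (SE 0.039, limma adjusted p = 1.68e-04). LRPPRC, which stabilises mitochondrial mRNAs, had 174 and 175 TPM in sh-NC and 107 and 98.9 TPM in sh-ANP32B, a log2 fold change of -0.76. MTRF1L, a release factor, had a log2 fold change of 0.15 and did not pass the test (adjusted p = 0.169). Of 28 genes for assembly of the mitoribosome and modification of its rRNA 15 fell and 3 rose, with a median of -0.30. These counts were 10 and 1 without sh-NC replicate 1, 10 and 2 without sh-NC replicate 2, and 9 and 2 without a variance trend, and 1 gene rose without either sh-ANP32B library. ERAL1, a GTPase that binds the small subunit rRNA during assembly, had 73.6 and 74.3 TPM in sh-NC and 24.8 and 27.9 TPM in sh-ANP32B, a log2 fold change of -1.46 (SE 0.072, limma adjusted p = 1.53e-04) and a larger decrease than any MRP gene. YBEY, an endoribonuclease, had 5.7 and 7.97 TPM in sh-NC and 11.2 and 11.6 TPM in sh-ANP32B, a log2 fold change of 0.68 (SE 0.168, limma adjusted p = 0.0221) that did not pass without sh-NC replicate 1 or either sh-ANP32B library.

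Of 8 genes for transcription and replication of mitochondrial DNA 5 fell and 1 rose, with a median log2 fold change of -0.39. TFAM, which packages mitochondrial DNA and starts its transcription, fell by 0.62 on the log2 scale, from 37.8 and 38.4 TPM to 25.6 and 23.4 TPM. POLRMT, the mitochondrial RNA polymerase, fell by 0.47, from 73.3 and 74 TPM to 54.7 and 50.8 TPM. TWNK, the replicative helicase, fell by 0.74, from 44.2 and 44.3 TPM to 25.6 and 26.7 TPM. The limma adjusted p of these genes lay between 5.44e-04 and 0.00181. POLG2, the accessory subunit of the DNA polymerase, rose by 0.21 (limma adjusted p = 0.044). This call was lost with the replicate block (adjusted p = 0.0617), with median-of-ratios scaling (adjusted p = 0.216) and without a variance trend. It was also lost in 3 of the 4 fits without 1 library.

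The RNAs of mitochondrial DNA, which include the rRNAs of the mitoribosome and the mRNAs it translates, were examined beside the mRNAs of the MRP genes. The 13 mRNAs of mitochondrial DNA summed to 128510 and 124551 TPM in sh-NC and to 144722 and 143316 TPM in sh-ANP32B. With the TPM as deposited 10 of 13 rose and none fell, with a median log2 fold change of 0.26, but the counts were 4 higher and 1 lower with median-of-ratios scaling, 5 higher and 1 lower with quantile normalization and 3 higher without a trend in the variance. MT-ND3, a subunit of complex I, had 1700 and 1709 TPM in sh-NC and 2439 and 2520 TPM in sh-ANP32B, a log2 fold change of 0.54. MT-ND1, another subunit of complex I, had 5933 and 5890 TPM in sh-NC and 5489 and 5589 TPM in sh-ANP32B, a log2 fold change of -0.09 (limma adjusted p = 0.076) that passed the test as lower with either rescaling. The rRNA of the small subunit, MT-RNR1, rose by 0.28 on the log2 scale (limma adjusted p = 0.00177). The rRNA of the large subunit, MT-RNR2, rose by 0.19 (limma adjusted p = 0.0133), a call lost with quantile normalization (log2 fold change 0.00) and median-of-ratios scaling (0.09). Without a trend in the variance only 1 of these 2 rRNAs was called higher. The summed mRNAs of mitochondrial DNA were 21.9 and 21.3 times the summed MRP genes in sh-NC and 31.3 and 31.5 times in sh-ANP32B, a ratio that multiplying a whole library by a factor does not alter.

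The genes of the cytosolic ribosome were also mostly downregulated. Of 79 genes 73 fell and none rose, although 2 rose without sh-ANP32B replicate 1. The median log2 fold change was -0.40 and the quartiles were -0.50 and -0.34, against quartiles of -0.47 and -0.21 for the MRP genes. RPL23, at the low end, had 822 and 817 TPM in sh-NC and 347 and 575 TPM in sh-ANP32B (log2 fold change -0.87, SE 0.220, limma adjusted p = 0.0237), a call lost without either sh-NC library (adjusted p = 0.0689 and 0.0647). RPS15A, at the high end, had 483 and 590.1 TPM in sh-NC and 393 and 749 TPM in sh-ANP32B, so its groups overlapped (log2 fold change 0.02, 95% interval -0.71 to 0.76). These mRNAs summed to 121475 and 120317 TPM in sh-NC and to 89286 and 91500 TPM in sh-ANP32B, 74.8% of the control mean, beside 78.3% for the MRP genes. The cytosolic sum was 20.7 and 20.6 times the MRP sum in sh-NC and 19.3 and 20.1 times in sh-ANP32B. Cytosolic ribosomal protein genes have many processed pseudogenes, so single values are uncertain.

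**Figure D4:**
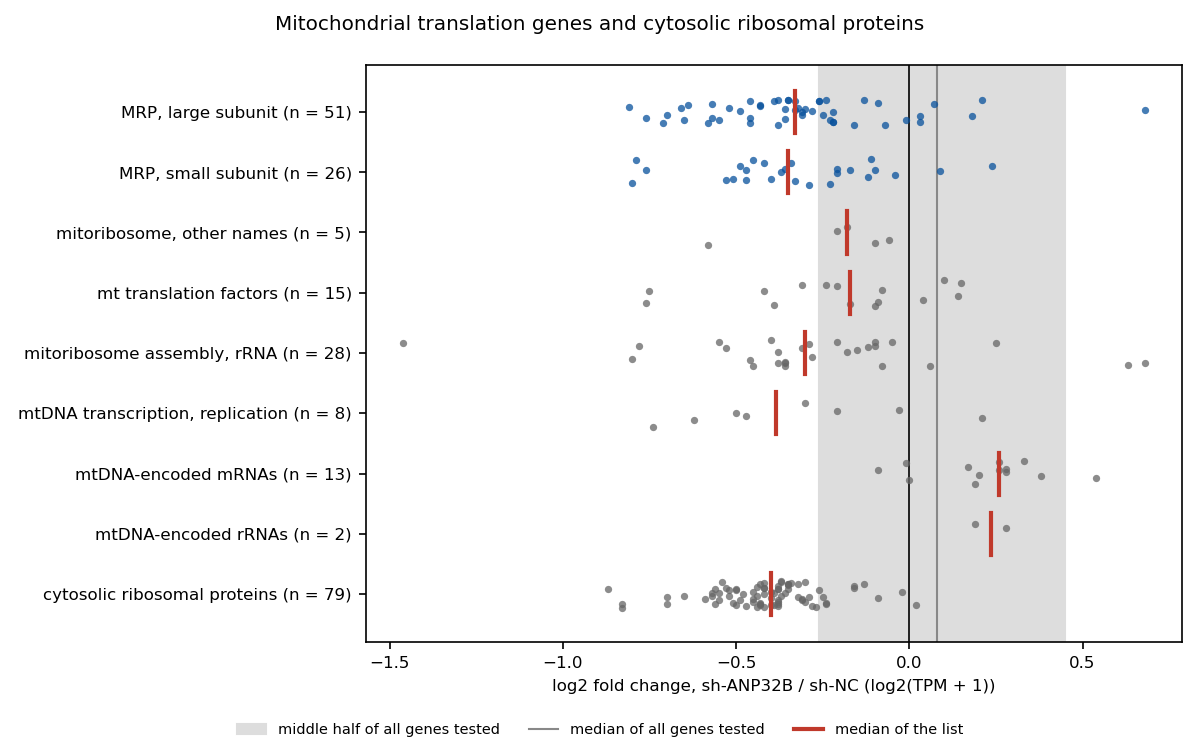
Log2 fold change of sh-ANP32B over sh-NC (x axis) for single genes (points) of each gene list (y axis), with the list's median as a red bar and the middle 50% of all genes tested as a grey band around their median of 0.08. Both MRP subunits centre near -0.33 and -0.35 and the cytosolic ribosomal proteins at -0.40, while the mRNAs of mitochondrial DNA lie around 0.26.

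Across the alternatives the decrease of the MRP genes kept its direction. At an adjusted p below 0.05 with no fold limit, between 37 and 60 genes were lower with all 4 libraries and between 40 and 44 with 1 library left out, and 36 genes were called lower in each of the 9 settings with all 4 libraries. MRPL33 was the only member called higher in each of these.

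**Figure D5:**
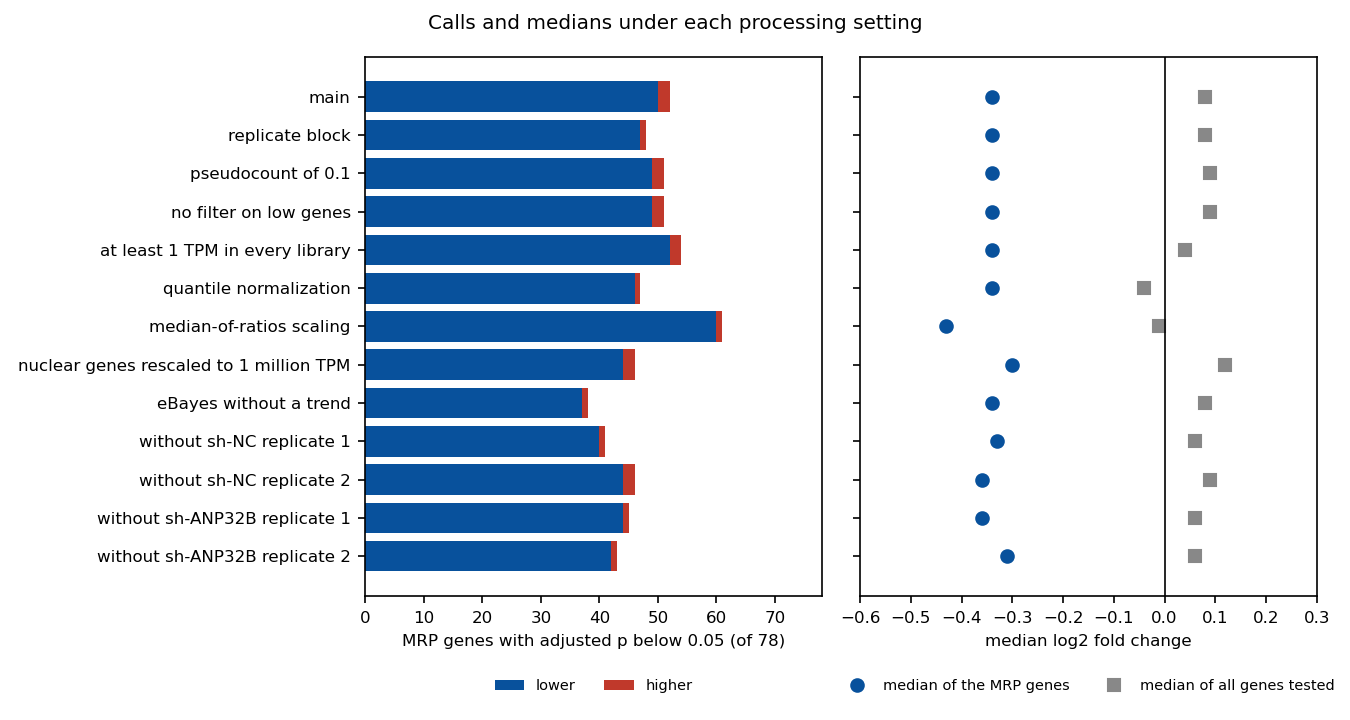
Left, the number of the 78 MRP genes called lower and higher (x axis, from 0) in each processing setting (y axis); right, the median log2 fold change of the MRP genes and of all genes tested. The MRP median stays between -0.43 and -0.30 in the 13 settings, and the smallest number of lower calls, 37, comes without a trend in limma's variance model.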

How the data were processed

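RNA from 4 MV4-11 libraries was sequenced, 2 labelled as controls and 2 as ANP32B knockdown. The authors aligned reads to hg38 with HISAT2 (2.0.5, per the labels) and deposited 1 TPM value per gene and library. The tool, annotation and strand handling behind the TPM are not given in the sources used here. The knockdown columns carry the mark S3, and were taken as sh-ANP32B because the labels name no other knockdown. The lowest mean of a gene listed was 0.5 TPM. Of 18885 identifiers 17290 were found in GENCODE 44. The authors tested with DESeq2, which needs counts, so limma (3.58.1, R 4.3.3; lmFit and eBayes with a trend) was run on log2(TPM + 1) for the 16937 genes reaching 1 TPM in 2 or more libraries. The script was tested on simulated data. Python 3.11.15 with pandas 2.3.3, numpy 2.4.6 and matplotlib 3.10.9 made the tables and plots.

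The members, lists, motifs and tests were chosen with earlier results of these data known. The rule for named members took the 5 lowest and 5 highest log2 fold changes, the 3 highest and 3 lowest mean TPM, and a set of genes with special roles; of every other list it took the lowest and highest log2 fold change and a few central genes. Members named for a shared start region, an overlap or a motif were chosen after their values were seen. The same replicate numbers in both groups were checked for pairing: after the group means were taken off, libraries with the same number correlated at -0.0232, and no block was used. The alternatives were a replicate block, a pseudocount of 0.1, no filter, at least 1 TPM in every library, quantile normalization, median-of-ratios scaling, nuclear genes rescaled to a common total, no variance trend, 2 calling rules with a fold limit of 0.5, and each library left out. With a library left out its group has 1 library, which is assumed to vary like the other group. The summed level of the markers of other cell types is not reported here.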

Additional observations from a re-analysis of the deposited data

How the results depend on the processing

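Same-numbered libraries had a correlation of deviations of -0.0232, which shows no sign of pairing. Whether the libraries were made in pairs is not given in the sources used here. With the replicate block 47 MRP genes were lower and 1 was higher, against 50 and 2 without it. The number of MRP genes called higher was also 1 with quantile normalization, median-of-ratios scaling, no variance trend and either fold limit, and 1 to 2 with 1 library left out. The number called lower was 17 with an unadjusted p and a fold limit of 0.5, and 16 with an adjusted p and that limit, by the fold limit's own construction. In the large subunit these counts were 12 and 12, and 23 without a variance trend, and in the small subunit they were 5 and 4. With median-of-ratios scaling the median log2 fold change was -0.43 for the MRP genes, -0.43 for the large and -0.44 for the small subunit, and the summed TPM was 73.1% of control, against 80.1% with nuclear genes rescaled. The other lower counts of the MRP genes and their subunits were within 1.5 times those reported, and their other medians moved by less than the spread between replicates.

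The median over all genes tested changed sign with quantile normalization (-0.04) and median-of-ratios scaling (-0.01). So did MRPS18C (-0.01) and RPS15A (-0.07) with median-of-ratios scaling. None of these genes had passed the test. With 1 library left out, MRPS36 ranged from -0.27 to 0.11 and was 0.00 without sh-NC replicate 2, DAP3 ranged from -0.19 to 0.00, the latter without sh-ANP32B replicate 1, and RPS15A ranged from -0.44 to 0.49, being -0.12 without sh-NC replicate 1. The cause was not tested. Depth is unknown for TPM.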
